A study of Mus musculus with 4 samples.

Results

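The microRNA and RNA interference machinery was followed here as 9 transcripts out of the 22138 genes measured: Drosha, Dgcr8, Xpo5, Dicer1, Tarbp2, Ago2, Tnrc6a, Tnrc6b and Tnrc6c. They were chosen by gene name for their known roles, with earlier results of these data known, and all 9 were found, Ago2 under its older symbol Eif2c2. RNA came from TT2 cells, mouse embryonic stem cells that the labels describe as female and of a C57BL/6xCBA cross, kept feeder-free in medium with serum and the cytokine LIF. One group received control siRNA (n = 2 libraries) and the other received siRNA against Hnrnpk (n = 2 libraries), the gene of the RNA- and DNA-binding protein hnRNP K. Both groups were transfected with 100 nM siRNA and, 24 hours later, with 50 nM of the same siRNA, and were harvested about 72 hours after the second transfection. The control cells therefore carried siRNA too, and cells without siRNA were not analysed here. The comparison asks how these transcripts stood when Hnrnpk was depleted.

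MicroRNAs are cut from hairpins in longer transcripts. In the nucleus DROSHA, with its partner DGCR8, releases the hairpin, exportin 5 carries it to the cytoplasm, and DICER1 trims it to a short duplex. The duplex, or a transfected siRNA of the same form, is loaded into an Argonaute protein, which then binds matching messages and recruits TNRC6 proteins and deadenylases to silence them. Embryonic stem cells that lack DICER1 or DGCR8 survive but have defects in proliferation and differentiation.

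Several of these genes themselves carry microRNA hairpins, which are shown because they tie the machinery, and the depleted gene, to its own substrates. The mature sequences are from RefSeq on GRCm38.p6, written 5′ to 3′ with the seed (bases 2 to 8, which pair with targets) in capitals. Of the 9 genes, 3 held a hairpin with mature arms in that RefSeq table on their own strand. GENCODE M21 also places the microRNA gene model Gm47288 over exonic bases of Drosha, and Gm24572 over exonic bases of Dgcr8. Mir1306 lies in a coding exon of Dgcr8, at chr16:18284288-18284310 (5p arm, minus strand) and chr16:18284248-18284268 (3p arm).
miR-1306-5p: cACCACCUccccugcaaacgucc
miR-1306-3p: aCGUUGGCucugguggugaug
Mir693 lies in an intron of Xpo5, at chr17:46231551-46231571 (5p arm, plus strand), and Mir5113 in a non-coding part of a Tnrc6b exon, at chr15:80940049-80940071 (plus strand).
miR-693-5p: cAGCCACAuccgaaaguuuuc
miR-5113: aCAGAGGAggagagagauccugu
Hnrnpk, the targeted gene, is also a host: Mir7-1 lies in one of its introns, at chr13:58392841-58392863 (5p arm, minus strand).
miR-7a-5p: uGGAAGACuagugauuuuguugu
These 5 mature sequences have 5 different seeds, so no pair of them shares a seed family. MicroRNA levels themselves were not analysed here, and a host transcript's level is not a measure of its microRNA.

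Values are RPKM, reads scaled to transcript length and library size. Levels can be set beside each other between genes only as far as the lengths used, which were not given, allow. The libraries listed 17566 to 18077 genes above 0. Steps between low values put their relative depth at 1 and 0.982 in the controls and at 0.891 and 0.882 after Hnrnpk siRNA. Depth thus differed with the groups. The size of a step was read from 18 to 21 single-exon genes in a library. Over its transcript length Tnrc6b, the lowest member by RPKM, corresponded to 5521 to 8603 such steps in a library, and the shorter Tarbp2 to 2995 to 3398; whether a step is a read or a read pair is not known, so counts give the order of size only. Hnrnpk stood at 236 and 226 RPKM after control siRNA and at 68.0 and 70.5 RPKM after Hnrnpk siRNA, a log2 change of -1.73 (95% interval -1.87 to -1.59, limma adjusted p = 6.59e-08) in the direction of the labels. Part of its transcript, 46.4%, is shared at 95% identity or more with 2 other annotated genes, Gm7964 and Gm4130.

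The labelled cell type was checked against its markers. All 10 pluripotency markers were present, at 45.1 RPKM or more, with 2 called higher and 4 lower (60.0%, beside 67.2% of all genes tested). They summed to 3935 to 4094 RPKM in the control libraries and to 4699 to 5022 RPKM after Hnrnpk siRNA. Without Dppa5a, the most abundant of them (mean 1298 and then 2308 RPKM), the other 9 summed to 2658 to 2774 and to 2535 to 2570 RPKM, so the sum and the rest of the list went opposite ways. The 8 primitive endoderm markers summed to 11.8 to 12.0 RPKM and to 53.1 to 55.1 RPKM. All 6 tested were called higher, beside 32.2% of all genes tested. The 8 trophectoderm markers summed to 69.6 to 72.7 RPKM and to 96.7 to 102 RPKM. Of 6 tested, 5 were called higher and 1, Tfap2c, lower (100%, beside 67.2% of all genes tested). Without Tfap2c, the most abundant of them, the rest summed to 30.5 to 36.0 and to 68.5 to 73.1 RPKM. Fibroblast markers, which feeder cells would bring, summed to 8.79 to 10.4 RPKM and to 5.05 to 5.31 RPKM. Of 3 tested, 2 were called lower (66.7%, beside 67.2% of all genes tested). Without Thy1, the most abundant of them, the rest summed to 3.48 to 3.60 and to 2.83 to 3.03 RPKM. Col1a2, Col3a1, Lum, Dcn and Postn were under 0.5 RPKM in every library. No marker of any of the 4 lists was at 0 in all libraries. The endoderm and trophectoderm markers thus moved with the groups, and their part in the results that follow was not tested. In bulk RNA, fewer cells of a type and less RNA per cell cannot be told apart.

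Among the 9 members, Dicer1, Xpo5 and Tnrc6b fell after Hnrnpk siRNA, Tarbp2 rose, and Drosha, Dgcr8, Ago2, Tnrc6a and Tnrc6c were not called. No member changed by as much as 2-fold (a log2 change of 1), beside 8.51% of all genes tested. The 4 calls of 9 (44.4%) stand beside 67.2% of the 12486 genes tested, since most genes were called in this comparison. The 1 call upward stands beside 32.2% of all genes and the 3 downward beside 35.0%. In 7 of the 9 genes the Hnrnpk siRNA libraries lay wholly above or wholly below the controls, beside 84.7% of all genes tested. The median log2 change of the members was 0.016, and that of all genes tested was -0.015; the median size of change, regardless of direction, was 0.12 for the members and 0.32 for all genes. These counts depend on the processing: with no filter on low genes 0 members were called higher and 1 lower, and with length trends removed 4 higher (Drosha, Dgcr8, Tarbp2 and Tnrc6a) and 1 lower (Dicer1), with a median of 0.14. With 2 libraries a group, an exact permutation test of 1 gene cannot give a p below 0.333, so each call rests on the spread that limma pools over genes.

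**Figure D1:**
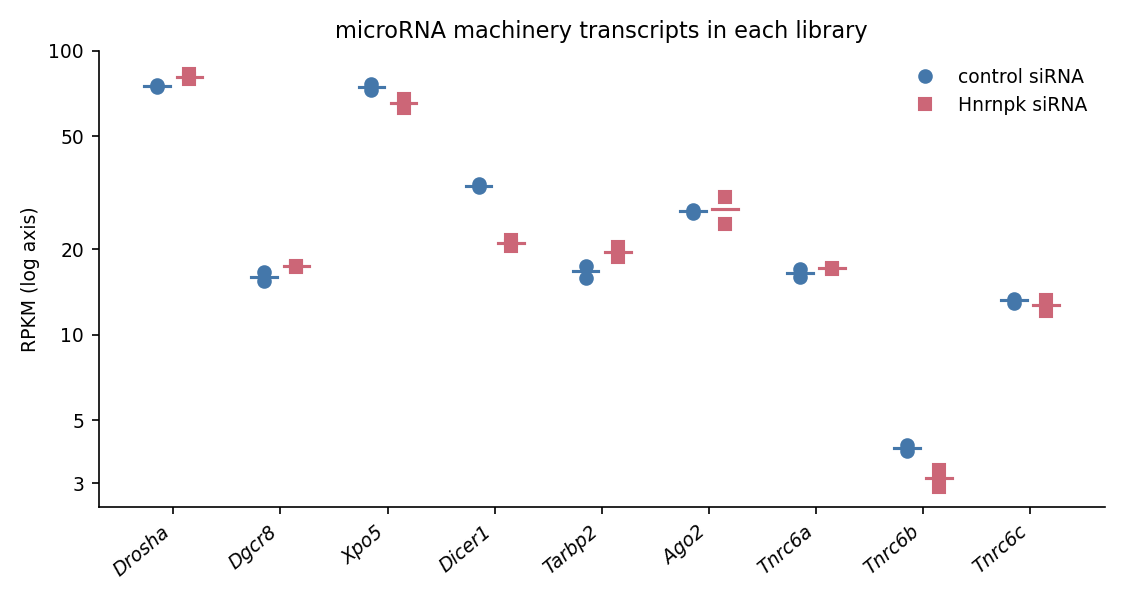
RPKM of each member (log axis) in every library, with control siRNA libraries as circles, Hnrnpk siRNA libraries as squares and a line at each group's mean (n = 2 each). Drosha and Xpo5 are the highest, Tnrc6b the lowest, and Dicer1 shows the widest gap between the groups, 33.4 against 21.0 RPKM.

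The nuclear step was represented by Drosha and Dgcr8. Drosha (ENSMUSG00000022191, GRCm38 chromosome 15, 12824815 to 12935291, plus strand), the RNase III enzyme that cuts the primary transcript, stood at 74.6 and 75.8 RPKM in the controls and at 82.9 and 79.2 RPKM after Hnrnpk siRNA. Both Hnrnpk siRNA libraries were the higher ones, but the log2 change of 0.11 (95% interval -0.030 to 0.25, limma adjusted p = 0.147) was not called; it was 0.066 under quantile normalization. Dgcr8 (ENSMUSG00000022718, chromosome 16, 18253948 to 18289246, minus strand) encodes the RNA-binding subunit that recognises the hairpin. It stood at 15.4 and 16.6 RPKM after control siRNA and at 17.5 and 17.3 RPKM after Hnrnpk siRNA. Again the groups did not overlap and the log2 change of 0.12 (95% interval -0.035 to 0.27, limma adjusted p = 0.151) was not called. It was 0.068 without control replicate 1. The DROSHA-DGCR8 complex is known to cut a hairpin in the Dgcr8 message itself, so the ratio of the transcripts was compared. The ratio of Drosha to Dgcr8 RPKM was 4.83 and 4.57 in the control libraries and 4.74 and 4.58 after Hnrnpk siRNA. The groups overlapped, with a difference of -0.0449 (exact two-sided permutation p = 1). Of the exonic bases of Dgcr8, 10.7% overlap Trmt2a on the opposite strand; strandedness was not given in the sources used here, and reads there cannot be assigned to either gene.

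Xpo5 (ENSMUSG00000067150, chromosome 17, 46202782 to 46243598, plus strand) encodes exportin 5, which moves hairpin precursors out of the nucleus. It stood at 72.5 and 76.4 RPKM after control siRNA and at 67.7 and 63.1 RPKM after Hnrnpk siRNA. Both Hnrnpk siRNA libraries lay below both controls, and the group means were 74.4 ± 2.71 and 65.4 ± 3.19 RPKM (SD, n = 2 each). The log2 change was -0.19 (95% interval -0.33 to -0.038, limma adjusted p = 0.0297). This small fall was close to the threshold: it was not called without control replicate 2 (-0.15, adjusted p = 0.126), without Hnrnpk siRNA replicate 2 (-0.14, adjusted p = 0.177), with no filter, without a mean-variance trend, or with GC or length trends removed. Over all alternatives the limma adjusted p ran from 0.0119 to 0.177.

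Dicer1 fell furthest. The gene (ENSMUSG00000041415, chromosome 12, 104687742 to 104751952, minus strand) encodes the RNase III enzyme that cuts hairpin precursors, and long double-stranded RNA, into short duplexes. Its transcript measured 33.8 and 33.0 RPKM with control siRNA and 21.5 and 20.5 RPKM with Hnrnpk siRNA. The gap between the groups was many times the distance between replicates, with means of 33.4 ± 0.586 and 21.0 ± 0.753 RPKM (SD, n = 2 each), or 37.0% lower. This is a log2 change of -0.66 (SE 0.0639, 95% interval -0.80 to -0.51, limma adjusted p = 1.70e-05). The call held under all 14 alternatives, with log2 changes from -0.69 to -0.51. Dicer1 was thus the clearest change among the members, although a change of this size or larger was found in 21.0% of the genes tested.

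The genes outside the lists whose 4 values ran closest to those of Dicer1 were Dnmt1, Exoc2 and Gyk. Likeness was measured as the distance between log2(RPKM + 0.5) values, each gene centred on its own mean, over the 4 libraries. Dnmt1, the maintenance DNA methyltransferase, lay at a distance of 0.0118, with 108 and 106 RPKM in the controls and 70.1 and 66.4 RPKM after Hnrnpk siRNA. Exoc2, a subunit of the exocyst, lay at 0.0178 and Gyk, a glycerol kinase, at 0.0204, with log2 changes of -0.64 and -0.66. With 4 libraries in 2 groups, such likeness mostly reflects a similar difference between the groups.

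Tarbp2 (ENSMUSG00000023051, chromosome 15, 102518192 to 102523676, plus strand) encodes TRBP, an RNA-binding partner of DICER1. It moved the other way from Dicer1, from 15.8 and 17.5 RPKM after control siRNA to 18.7 and 20.4 RPKM after Hnrnpk siRNA. The groups did not overlap, but replicates within each group lay further apart than the nearest libraries of different groups. The log2 change of 0.23 (95% interval 0.054 to 0.40) was called at a limma adjusted p of 0.0247. It was not called without control replicate 1 (0.16, adjusted p = 0.112), without Hnrnpk siRNA replicate 2 (0.17, adjusted p = 0.183) or with no filter (adjusted p = 0.0593), in a range of 0.00386 to 0.183 over the alternatives, and with GC trends removed it was 0.35. Its level is uncertain as well, since 63.8% of its longest coding transcript is shared at 95% identity or more with 2 other annotated genes, Gm18584 and Gm18561. Prkra, which encodes PACT, the other such partner of DICER1, stood at 10.5 and 9.15 RPKM after control siRNA and fell to 5.71 and 5.91 RPKM (log2 change -0.71, 95% interval -0.90 to -0.52, limma adjusted p = 6.18e-05). So the transcripts of these related partners changed in opposite directions.

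**Figure D2:**
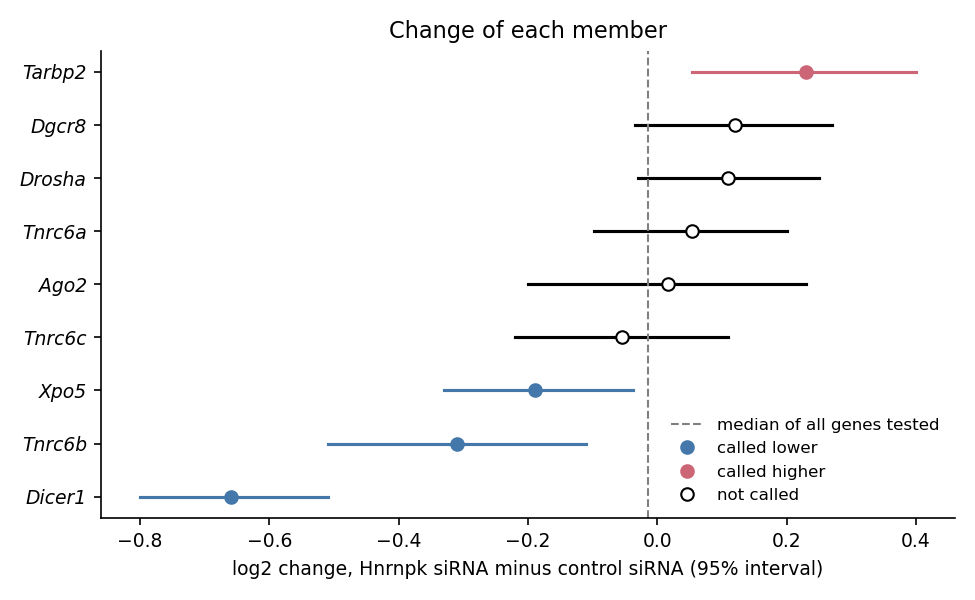
Log2 change of each member (Hnrnpk siRNA minus control siRNA, on log2(RPKM + 0.5)) with its 95% interval from limma, filled where called and open where not, and a dashed line at the median of all genes tested. Dicer1, at -0.66, stands apart from the other members, whose changes lie between -0.31 and 0.23.

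Ago2 (ENSMUSG00000036698, chromosome 15, 73095844 to 73184935, minus strand) encodes the Argonaute that can cut a fully matched target, as an siRNA directs it to do. Controls held it at 27.5 and 26.8 RPKM, and Hnrnpk siRNA libraries at 30.6 and 24.6 RPKM, so the Hnrnpk siRNA libraries lay on either side of the controls. Its log2 change was 0.016 (95% interval -0.20 to 0.23, limma adjusted p = 0.893), and the sign reversed under quantile normalization (-0.0052) and without control replicate 2 or Hnrnpk siRNA replicate 1 (-0.00078 and -0.14). The interval leaves room for a change of the size seen in Xpo5 in either direction.

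The other Argonautes, which bind microRNAs but are best known for silencing without cutting, changed unequally. Ago1 fell from 16.4 and 14.8 RPKM to 11.1 and 10.2 RPKM (log2 change -0.53, 95% interval -0.70 to -0.35, limma adjusted p = 0.000250). Ago3 rose from 1.51 and 1.59 RPKM to 2.62 and 2.43 RPKM (log2 change 0.56, 95% interval 0.36 to 0.76, adjusted p = 0.000371). Ago4 was listed at 0.280, 0.153, 0.229 and 0.250 RPKM over the control and then the Hnrnpk siRNA libraries, too low to be tested. Ago1, Ago3 and Ago4 lie together on chromosome 4, between 126331704 and 126533472 on GRCm38, while Ago2 is on chromosome 15.

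Within a library, the share of Ago2 in the summed RPKM of Ago1 to Ago4 does not depend on how the library is scaled. It was 60.2% and 61.9% in the control libraries and 68.7% and 65.6% after Hnrnpk siRNA, a difference of 6.12 percentage points (exact two-sided permutation p = 0.333, the smallest that 2 against 2 allows). The share of Ago1 was 35.9% and 34.1% in the controls and 24.9% and 27.2% after Hnrnpk siRNA. That of Ago3 was 3.30% and 3.66% in the controls and 5.87% and 6.49% after Hnrnpk siRNA. The groups did not overlap for any of these 3 shares, and Ago2 made up most of the sum in every library. Groups also did not overlap in 84.7% of all genes tested, and shares of 1 sum are bound to each other. The Ago4 share overlapped, at 0.613% and 0.353% in the controls and 0.514% and 0.666% after Hnrnpk siRNA. So did the sum itself, 45.6 and 43.4 RPKM against 44.5 and 37.5 RPKM.

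Tnrc6a, Tnrc6b and Tnrc6c encode the GW182 proteins, scaffolds that link Argonaute to the deadenylases. Tnrc6a (ENSMUSG00000052707, chromosome 7, 123123885 to 123195296, plus strand) stood at 15.9 and 17.0 RPKM in the controls and at 17.0 and 17.1 RPKM after Hnrnpk siRNA. Control replicate 2 and Hnrnpk siRNA replicate 1 nearly touched, and the log2 change of 0.053 (95% interval -0.098 to 0.20, limma adjusted p = 0.504) was not called. Tnrc6c (ENSMUSG00000025571, chromosome 11, 117654289 to 117763439, plus strand) stood at 13.4 and 12.9 RPKM in the controls and at 13.2 and 12.1 RPKM after Hnrnpk siRNA, with overlapping groups. Its log2 change was -0.055 (95% interval -0.22 to 0.11, limma adjusted p = 0.523), and it turned positive without Hnrnpk siRNA replicate 2 (0.0024) and with GC (0.0040) or length trends (0.064) removed.

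Tnrc6b (ENSMUSG00000047888, chromosome 15, 80711313 to 80941085, plus strand), the least abundant of the 3 by RPKM, went from 3.88 and 4.07 RPKM after control siRNA to 3.34 and 2.91 RPKM after Hnrnpk siRNA. Both Hnrnpk siRNA libraries lay below both controls, and the log2 change of -0.31 (95% interval -0.51 to -0.11, limma adjusted p = 0.0128) was called. The call ended without Hnrnpk siRNA replicate 2 (-0.22, adjusted p = 0.171), with no filter, under quantile normalization (-0.22) and with length trends removed (-0.12), in a range of adjusted p from 0.00600 to 0.197. Within the summed RPKM of the 3 genes, Tnrc6b made up 11.7% and 12.0% in the controls and 9.94% and 9.04% after Hnrnpk siRNA. Tnrc6a made up 48.0% and 50.0% in the controls and 50.8% and 53.2% after Hnrnpk siRNA, a difference of 3.04 percentage points (exact two-sided permutation p = 0.333). Without Hnrnpk siRNA replicate 2 that difference was 1.82 percentage points (exact permutation p = 0.667), in a range of 1.82 to 4.26 without 1 library. The groups overlapped for Tnrc6c, at 37.7% to 40.3%. The sum itself, 33.2 and 34.0 RPKM against 33.6 and 32.2 RPKM, overlapped too.

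**Figure D3:**
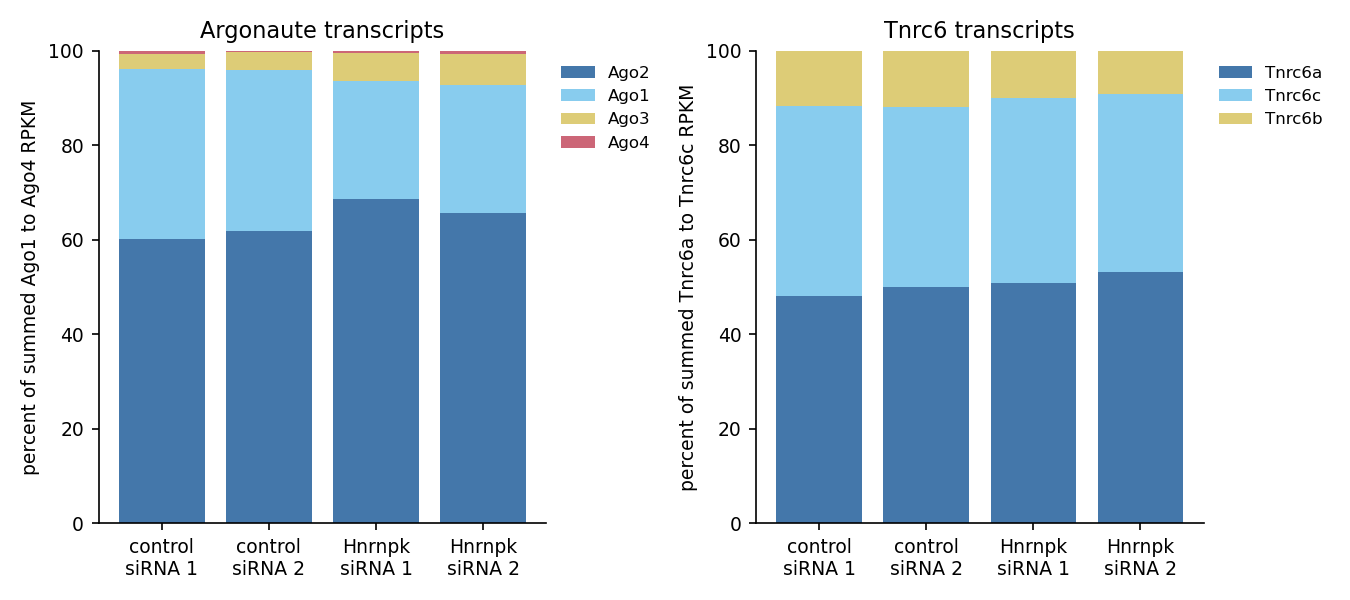
Shares of the summed RPKM of Ago1 to Ago4 (left) and of Tnrc6a to Tnrc6c (right), in percent, with a bar for each library. The Ago1 segment is smaller and the Ago3 segment larger in both Hnrnpk siRNA libraries, and Ago2 makes up 60.2% to 68.7% of the sum.

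Levels of the members, by the deposited RPKM, differed far more between genes than between groups. The order between genes rests on transcript lengths that were not given. Tarbp2, for one, has 1523 bases in its longest coding transcript and 4549 over all its exons. Overlap between neighbours below refers to the spread of the libraries only. In the control libraries, by RPKM, Drosha and Xpo5 were highest and overlapped each other. Dicer1 and then Ago2 followed, each clear of its neighbours, then Tarbp2, Tnrc6a and Dgcr8, whose neighbours overlapped, then Tnrc6c and last Tnrc6b. After Hnrnpk siRNA the order was Drosha, Xpo5, Ago2, Dicer1, Tarbp2, Dgcr8, Tnrc6a, Tnrc6c and Tnrc6b, with no overlap between neighbours. Dicer1 and Ago2 had thus changed places, with Dicer1 at 20.5 and 21.5 RPKM and Ago2 at 24.6 and 30.6 RPKM. Dgcr8 and Tnrc6a changed places as well, but they overlapped in the controls.

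Other genes of the pathway were taken from 5 lists made by role. Of the 10 partners of biogenesis, 2 were called higher and 3 lower (50.0%, beside 67.2% of all genes tested), with a median log2 change of -0.079. Ddx5 and Ddx17 encode closely related RNA helicases that work with DROSHA and DGCR8. Ddx5 rose from 206 and 212 RPKM to 332 and 328 RPKM (log2 change 0.66, limma adjusted p = 1.68e-05), although 51.9% of its transcript is shared with Gm12183. Ddx17 fell from 96.2 and 78.8 RPKM to 55.4 and 56.5 RPKM (log2 change -0.64, adjusted p = 0.000167). As with Tarbp2 and Prkra, this related pair moved in opposite directions. That was not general, since the related Limd1 and Wtip, of the next list, fell together (log2 changes -0.53 and -0.51). Ajuba, related to both, was not called (log2 change 0.013, limma adjusted p = 0.880). Related genes were not compared as a set. Adar, which edits adenosines in RNA duplexes, fell from 16.9 and 18.6 RPKM to 13.7 and 13.4 RPKM (log2 change -0.37, adjusted p = 0.00131), and of its exonic bases 16.8% overlap Chrnb2 on the opposite strand. Ncbp2, of the nuclear cap-binding complex, had a log2 change of 0.23 (adjusted p = 0.0103) that was not called without control replicate 1 (0.18) or Hnrnpk siRNA replicate 2 (0.21).

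Of the 16 genes that act with Argonaute, 15 were tested, 4 called higher and 5 lower (60.0%, beside 67.2% of all genes), and their median log2 change was 0.049. Zswim8, a subunit of the ligase that degrades Argonaute on highly matched targets, rose from 6.67 and 6.82 RPKM to 13.1 and 13.9 RPKM (log2 change 0.95, limma adjusted p = 3.72e-06). Hsp90aa1, a chaperone for loading small RNAs, rose from 587 and 614 RPKM to 1001 and 949 RPKM (log2 change 0.70, adjusted p = 3.27e-05), with 68.7% of its transcript shared with 3 other annotated genes. Mov10, an RNA helicase found with Argonaute, fell from 43.8 and 41.3 RPKM to 24.7 and 22.6 RPKM (log2 change -0.83, adjusted p = 6.82e-06). Limd1, a LIM protein that bridges Argonaute and TNRC6, fell from 10.5 and 9.95 RPKM to 6.73 and 7.07 RPKM (log2 change -0.53, adjusted p = 0.000164). The change of Hsp90aa1 was 0.43 under quantile normalization.

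Downstream of TNRC6, 25 genes of deadenylation and decapping were tested, with 7 called higher and 9 lower (64.0%, beside 67.2% of all genes) and a median log2 change of 0.067. The 5 with the largest changes among those called were all lower, which depends on stopping at 5. The next, Pabpc1, rose from 586 and 612 RPKM to 842 and 811 RPKM (log2 change 0.46, limma adjusted p = 0.000387). Of its transcript, 37.3% is shared with Gm16580. Dcp1b, a decapping cofactor, fell from 1.66 and 1.68 RPKM to 0.853 and 0.831 RPKM (log2 change -0.69, limma adjusted p = 0.000105), and Xrn1, the exonuclease that degrades decapped messages, from 8.64 and 8.42 RPKM to 6.30 and 5.30 RPKM (log2 change -0.52). Pan2, of the PAN2-PAN3 deadenylase, had a log2 change of -0.50, and Cnot3 and Cnot1, of the CCR4-NOT deadenylase, changes of -0.49 and -0.47; 39.5% of the Cnot3 transcript is shared with Gm9207. Of these, Cnot1, the scaffold of that complex, fell from 151 and 136 RPKM to 108 and 99.5 RPKM. Ddx6, the helicase that links CCR4-NOT to decapping, stood at 25.3 and 26.4 RPKM in the controls and at 26.1 and 23.5 RPKM after Hnrnpk siRNA, which overlap (log2 change -0.062, 95% interval -0.22 to 0.10). Its sign reversed without Hnrnpk siRNA replicate 2 (0.015) and with length trends removed (0.0077).

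The let-7 microRNAs are held back in embryonic stem cells by LIN28 proteins, which bind the precursor and recruit uridylating enzymes. Members of the family are shown for their shared seed, at chrX:151912353-151912374 and chrX:151913229-151913250 (plus strand), both in introns of Huwe1.
let-7f-5p: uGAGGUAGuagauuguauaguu
miR-98-5p: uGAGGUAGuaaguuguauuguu
Of the 7 regulators on this list, 2 were called higher and 4 lower (85.7%, beside 67.2% of all genes), with a median log2 change of -0.19. Lin28a stood at 78.4 and 89.1 RPKM in the controls and at 71.3 and 75.1 RPKM after Hnrnpk siRNA. Its log2 change of -0.19 (limma adjusted p = 0.0445) was not called with no filter, under median ratios, without a mean-variance trend, with GC or length trends removed, or without control replicate 2 or either Hnrnpk siRNA library (-0.099, -0.15 and -0.23). Lin28b fell from 3.99 and 4.55 RPKM to 2.89 and 2.76 RPKM (log2 change -0.52, adjusted p = 0.000684). Trim71, a ubiquitin ligase and known let-7 target, fell from 52.0 and 52.2 RPKM to 37.9 and 34.0 RPKM (log2 change -0.53, adjusted p = 0.000110). Dis3l2, which degrades uridylated precursors, had a log2 change of -0.41 (adjusted p = 0.00409), which was -0.26 without control replicate 1. Among terminal nucleotidyltransferases, Tent2 and Tut7 had log2 changes of 0.44 and 0.31 (adjusted p = 0.000205 and 0.00710), with 45.6% of the Tent2 transcript shared with Gm15975; that of Tut7 was not called without Hnrnpk siRNA replicate 1 (0.30, adjusted p = 0.0509, in a range from 0.000587 over the alternatives).

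The last list held 18 genes known to carry microRNAs in their transcripts, of which 13 were matched and tested. Of these, 3 were called higher and 7 lower (76.9%, beside 67.2% of all genes), with a median log2 change of -0.27. Evl, a regulator of actin filaments, fell from 18.0 and 16.1 RPKM to 8.17 and 7.72 RPKM (log2 change -1.05, limma adjusted p = 3.18e-06). Ctdspl, a phosphatase, fell from 2.27 and 1.72 RPKM to 0.819 and 0.848 RPKM (log2 change -0.90, adjusted p = 0.000103). Pank1, a pantothenate kinase, and Srebf2, the transcription factor of sterol synthesis, had log2 changes of -0.45 and -0.39 (adjusted p = 0.000820 and 0.00114). Each of these 4 genes has a hairpin in an intron, and a mature arm of each is shown: miR-342-3p in Evl at chr12:108658680-108658702, miR-26a-5p in Ctdspl at chr9:119031811-119031832, miR-107-3p in Pank1 at chr19:34820700-34820722 (minus strand) and miR-33-5p in Srebf2 at chr15:82198127-82198147. The miR-26a-5p sequence does not identify its source, since Mir26a-2 in Ctdsp2, another gene of the list, gives the same mature arm.
miR-342-3p: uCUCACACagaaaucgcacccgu
miR-26a-5p: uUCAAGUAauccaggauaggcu
miR-107-3p: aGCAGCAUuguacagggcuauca
miR-33-5p: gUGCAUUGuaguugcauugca
In the other direction, Sfmbt2, a Polycomb-related gene, rose from 2.75 and 3.0 RPKM to 5.83 and 5.42 RPKM (log2 change 0.86, adjusted p = 1.94e-05).

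**Figure D4:**
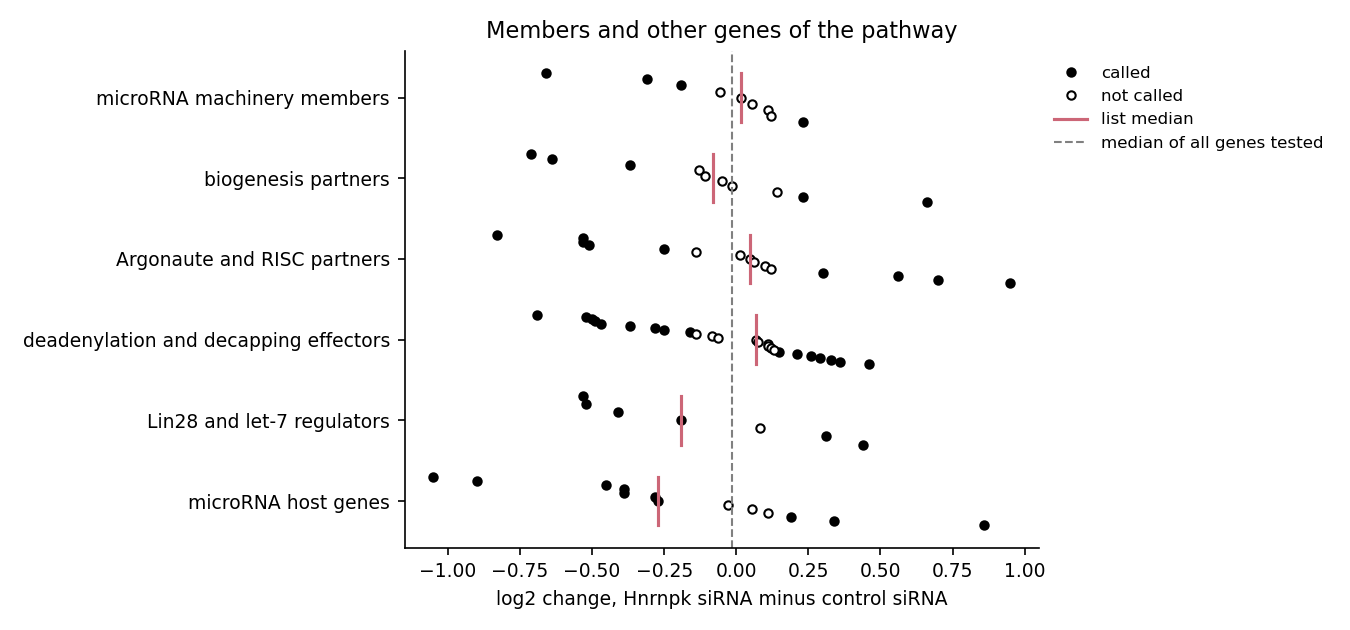
Log2 change (Hnrnpk siRNA minus control siRNA) of every tested gene of the 9 members and of the 5 other lists, filled where called and open where not, with each list's median as a bar and the median of all genes tested as a dashed line. Genes lie on both sides of 0 in every list, and the list medians run from -0.27 to 0.067.

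**Figure D5:**
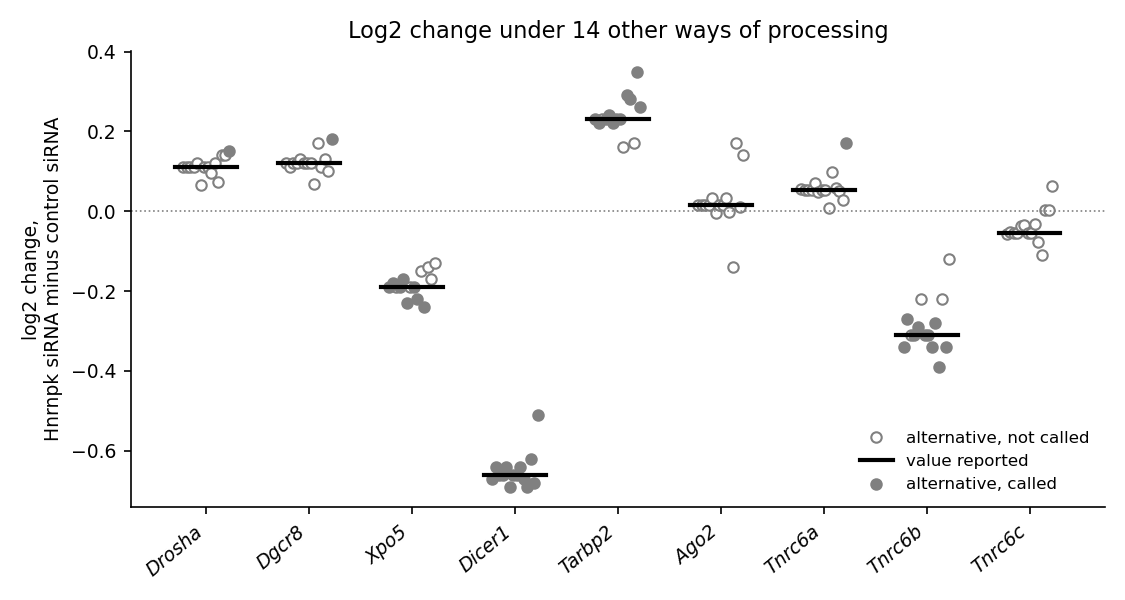
Log2 change of each member under 14 other ways of processing (points, filled where called) beside the value reported (bars). Dicer1 is called lower under every one, between -0.69 and -0.51, while Ago2 and Tnrc6c cross 0.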

How the data were processed

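RNA-seq libraries of 4 samples were analysed, 2 per group, grouped by their titles. The series' design text calls the replicates biological, with no further detail. The limma p-values set each change against the spread between these libraries, which limma pools in part over genes. Per the labels' protocols the RNA was both rRNA-depleted and poly(A)-selected, which is not resolved here. The authors deposited RPKM per gene, a column for each library. The submitters' processing notes name BWA, SAMtools and mm9; the counting tool, the annotation, strandedness and the treatment of reads with several matches were not given in the sources used here.

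Values were analysed as log2(RPKM + 0.5), a scale that understates changes of low genes. The 12486 genes averaging 0.5 RPKM or more were fitted with limma 3.58.1 (R 4.3.3; mean-variance trend, two-sided, 7.47 prior degrees of freedom), with Benjamini-Hochberg adjustment over all of them; calls are at an adjusted p under 0.05. In simulated data of 12486 genes, 200 were set to change. Of those set to a log2 change of 0.5, 81% were called, as were 100% at a change of 1. Of its 187 calls, 6 fell on unchanged genes. The data themselves gave 8396 calls, so the adjusted threshold was less strict there than in the simulation. Smaller changes were not simulated. These shares therefore do not carry over to the data. Nor do they tell how often a change as small as those of most members would be called. RPKM values gave no whole reads, so no count model was used. Positions, transcripts and overlaps came from GENCODE M21 on GRCm38, matched by identifier (92.8% of 22138), which is not the build of the submitters' notes; shared sequence was found with BLAST 2.17.0 (at least 100 bases at 95% identity). The members and lists were chosen with earlier results of these data known. Named are all members, Hnrnpk, up to 5 genes of each other list with the largest change among those called with groups that do not overlap, and Ago1, Ago3, Ago4, Prkra, Adar, Lin28a, Trim71 and Ddx6, plus the 3 genes outside the lists closest to Dicer1. Wtip and Ajuba, as relatives of Limd1, and Pabpc1, as the next deadenylation gene by size of change, are named outside that rule. Mir17hg, Meg3, Rian, Mirg and Dleu2 were not matched and are not analysed here. The calls of a fit without 1 library assume that the lone library of its group varies like the other group. Alternatives were the added value, the filter, scaling, the variance model, a replicate block, each library left out and, chosen after seeing the data, removal of GC or length trends.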

Additional observations from a re-analysis of the deposited data

How the results depend on the processing

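Dicer1 was called lower under all 14 alternatives (-0.69 to -0.51), and Hnrnpk too (-1.82 to -1.68). Leaving out 1 library moved the log2 change of Xpo5 between -0.24 and -0.14, Tarbp2 between 0.16 and 0.29, Tnrc6b between -0.39 and -0.22, Ago2 between -0.14 and 0.17 (-0.00078 without control replicate 2) and Tnrc6c between -0.11 and 0.0024. With no filter, Xpo5 (-0.19, adjusted p = 0.0504), Tarbp2 (0.23, 0.0593) and Tnrc6b (-0.31, 0.0524) were not called, leaving 0 members higher and 1 lower. Without a mean-variance trend Xpo5 was not called (-0.19, 0.0581). Quantile normalization gave Tnrc6b -0.22 (0.0535), Ago2 -0.0052, 6 biogenesis partners lower with a median of -0.16, a median of -0.058 for the Argonaute partners and 4 deadenylation genes higher. Removing length trends called Drosha (0.15, adjusted p = 0.0403), Dgcr8 (0.18, 0.0357) and Tnrc6a (0.17, 0.0484) higher, so that 4 members were higher and 1 lower with a median of 0.14, and gave Xpo5 -0.13, Tnrc6b -0.12, Tnrc6c 0.064, Ddx6 0.0077, and medians of -0.031 (biogenesis), 0.11 (deadenylation) and -0.20 (hosts). Removing GC trends gave Xpo5 -0.17, Tnrc6c 0.0040, and medians of 0.019 (Argonaute), -0.066 (deadenylation) and -0.13 (hosts). The cause of these differences was not tested.

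Without 1 library, members called numbered 0 to 1 higher and 1 to 3 lower (1 without Hnrnpk siRNA replicate 2), with a median of -0.11 to 0.05. Biogenesis partners called higher numbered 1 to 2, deadenylation genes 4 to 6 and Lin28 and let-7 regulators 1 to 2. Medians ran from -0.11 to -0.019 (biogenesis), -0.0065 to 0.085 (Argonaute), 0.016 to 0.075 (deadenylation), -0.26 to -0.099 (Lin28 and let-7) and -0.31 to -0.18 (hosts). The difference in the Drosha to Dgcr8 ratio ran from -0.175 to 0.0856, being positive without control replicate 1 (0.0856) or Hnrnpk siRNA replicate 2 (0.0338). Ddx6 was at 0.015 without Hnrnpk siRNA replicate 2.

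The libraries share only replicate numbers, and same-numbered libraries did not deviate together (correlation of deviations 0.0267). A replicate block gave 4162 genes higher and 4460 lower, beside 4025 and 4371, and left every member's call as it was, with Dicer1 at -0.66.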
